A study of Homo sapiens with 4 samples.

Results

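The 453 genes described here were selected on their crosslinked reads, as the genes of the PAR-CLIP table with at least 100 FH-DHX36 reads and more FH-DHX36 than FH-DHX36-E335A reads. They are 453 of the 3259 genes with at least 100 FH-DHX36 reads (13.9%), out of 26490 genes in the table. The other 2806 genes, all with fewer FH-DHX36 reads, are given beside them for comparison. DHX36 itself had 19208 FH-DHX36 and 30909 FH-DHX36-E335A reads and would not have met the rule, and the 13 mitochondrially encoded genes were left out. The cells were HEK293, a human embryonic kidney line, in which an integrated FLAG/HA-tagged DHX36 was induced by tetracycline (500 ng per ml, 15 h) before crosslinking at 365 nm for 5 min. FH-DHX36 cells carried isoform 2 of the unmutated helicase and FH-DHX36-E335A cells carried isoform 1 with the helicase-dead E335A exchange, so that isoform and mutation cannot be told apart. Each cell line had 2 biological replicates, but the table holds 1 value per gene and cell line. There is thus no replicate spread and no test, every value is the authors' value, and intervals cover counting error only. Of the HEK293 markers looked up, VIM, NEFL and KRT8 had clusters and NEFM, KRT18 and PAX2 had none.

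DHX36 is a DEAH box helicase that binds and unwinds G-quadruplexes, stacked structures formed by runs of guanines, and it is known to bind mRNA in the cytoplasm. A helicase-dead mutant can still bind its substrates but cannot use ATP to unwind them. In PAR-CLIP, cells build 4-thiouridine into new RNA, UV light crosslinks it to the bound protein, and T-to-C conversions mark the contact. Clusters are groups of overlapping reads with such conversions, and crosslinked reads are the reads in clusters.

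The sequences below are shown because G-quadruplexes are the known substrate of the helicase and because each comes from the region that held at least 90% of the FH-DHX36 reads of its gene. The letters searched were GG-N-GG-N-GG-N-GG on the sense strand, with N standing for 1 to 7 of any base and with longer G runs allowed. Capitals mark the runs of G. They are the matches with the most runs of 3 or more guanines, 1 per gene, in 7 of the 8 genes with the most FH-DHX36 reads among the named genes that had a match of up to 30 nt with 4 separate runs. Their positions on GRCh37 (hg19) are chr17:80573450-80573477 on the minus strand in exon 10 of 10 for WDR45B, chr12:53854805-53854829 on the plus strand in exon 7 of 15 for PCBP2 and chr10:17271459-17271477 on the plus strand in exon 2 of 10 for VIM. Those of the other matches are chr19:49611165-49611187 on the plus strand in exon 10 of 10 for SNRNP70, chr5:139947883-139947903 on the plus strand in exon 3 of 3 for SLC35A4, chr19:59060839-59060864 on the plus strand in exon 13 of 17 for TRIM28 and chr12:31479037-31479054 on the minus strand in exon 1 of 6 for FAM60A.
WDR45B 3'UTR: GGacctGGGGactGGGctgagaGGGtGG
PCBP2 CDS: GGGGctcaGGtccaGGtGGcaGGGG
VIM CDS: GGatgttcGGcGGcccGGG
SNRNP70 CDS: GGGaccGGcGGaGGcgctcacGG
SLC35A4 3'UTR: GGaGGttGGtGGatgaaGGGG
TRIM28 CDS: GGGctGGaGGtGGtGGctcctgaGGG
FAM60A 5'UTR: GGcagttgaGGaGGaGGG
LSM4 and ZNF561 in the CDS and ATXN1L in the 5'UTR also had at least 90% of their FH-DHX36 reads in 1 region. So did RBM12B, with 93.8% in the 3'UTR. For these genes no match of up to 30 nt within 1 exon was listed there, and they were passed over. The table gives no cluster positions, so that whether a cluster lay on any of the matches shown is not known. Such matches were common. They were present in the canonical transcript of 448 of 451 matched genes (99.3%) and of 2745 of 2787 other genes (98.5%), in the CDS of 93.8% against 88.1%, in the 3'UTR of 76.3% against 78.1% and in the 5'UTR of 67.4% against 64.9%. With at least 3 guanines in each run, 38.8% (34.4% to 43.4%, 95% Wilson interval) of the transcripts had a match, against 32.3% (30.5% to 34.0%) of the others.

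The 453 genes held 417971 FH-DHX36 and 252052 FH-DHX36-E335A reads. This was 19.3% of the 2160413 FH-DHX36 reads in the table but 2.88% of the 8752127 FH-DHX36-E335A reads. Because the FH-DHX36-E335A PAR-CLIP held 4.05 times as many reads, a gene with equal shares of both would have had fewer FH-DHX36 reads, and compared as shares of each total, 1868 of the 3259 genes were higher in FH-DHX36. FH-DHX36 reads ran from 100 to 30421 with a median of 312, close to the median of 272 of the other genes. FH-DHX36-E335A reads had a median of 183 against 1315 in the other genes. In the 416 genes with reads in both PAR-CLIPs, the ratio of FH-DHX36 to FH-DHX36-E335A reads had a median of 1.61, with quartiles of 1.22 and 2.66. The ratio was at least 2, or no FH-DHX36-E335A read was listed, in 191 genes, which is 5.86% of the 3259, and the highest was 23.2 for ZER1, with 441 against 19 reads. All of these values describe the selection. At its edges, CCDC163P, KDM6B and LMF2 were included with 100 FH-DHX36 reads each, and RAB36 with 99, KCNQ1 with 98 and LURAP1 with 98 fell short. CDC27 (597 against 594 reads), POLD2 (1294 against 1287) and ERI3 (147 against 146) were included, whereas PAGR1 (300 against 301), WTIP (247 against 248) and HNRNPM (6128 against 6158) were not. The FH-DHX36 reads of 53 genes were at most 1.1 times their FH-DHX36-E335A reads.

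**Figure D1:**
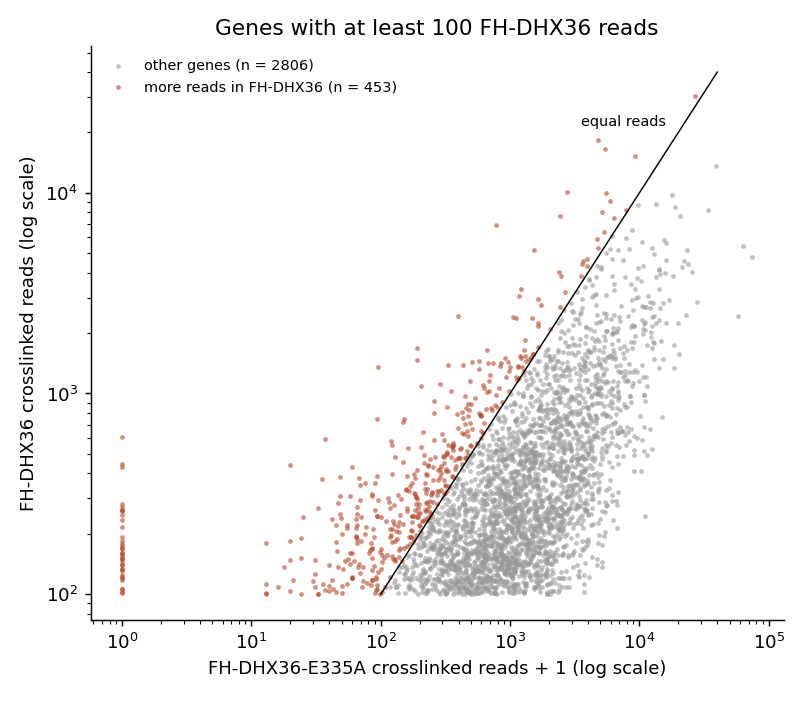
FH-DHX36 crosslinked reads (vertical, log scale) against FH-DHX36-E335A crosslinked reads plus 1 (horizontal, log scale) for the 3259 genes with at least 100 FH-DHX36 reads. Each point is a gene and the line marks equal reads. The 453 genes with more FH-DHX36 reads lie above the line, by selection, and the 37 with no FH-DHX36-E335A reads stand at the left edge.

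A few genes carried much of the signal. The 10 genes with the most FH-DHX36 reads held 32.0% of the reads, and 84 genes had at least 1000. HNRNPA2B1, an RNA-binding protein of the hnRNP family, had the most, with 30421 FH-DHX36 and 26851 FH-DHX36-E335A reads, of which 25921 and 21886 had an annotation other than 5'UTR, CDS, 3'UTR or intron. LSM4, a subunit of the LSm ring that binds U6 snRNA and decaying mRNA, had 18367 against 4796 reads. Its CDS held 17661 FH-DHX36 reads on 2 clusters and 2263 FH-DHX36-E335A reads on 2 clusters, whereas its 3'UTR held 512 and 2188. The higher FH-DHX36 count of LSM4 was thus in the CDS alone. VIM, the intermediate filament protein vimentin, had 7577 reads in the CDS against 1114, and PCBP2, a poly(C)-binding protein, had 8950 against 4076. POLR1C, a subunit of RNA polymerases I and III, had 10065 against 2757 reads, 9965 and 2272 of them with another annotation. OAZ1, the antizyme that restrains polyamine synthesis, had 15276 against 9225 reads, also mostly with another annotation (14843 and 8687). WDR45B, a WD repeat protein of autophagy, had 9993 reads in the 3'UTR against 5241.

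**Figure D2:**
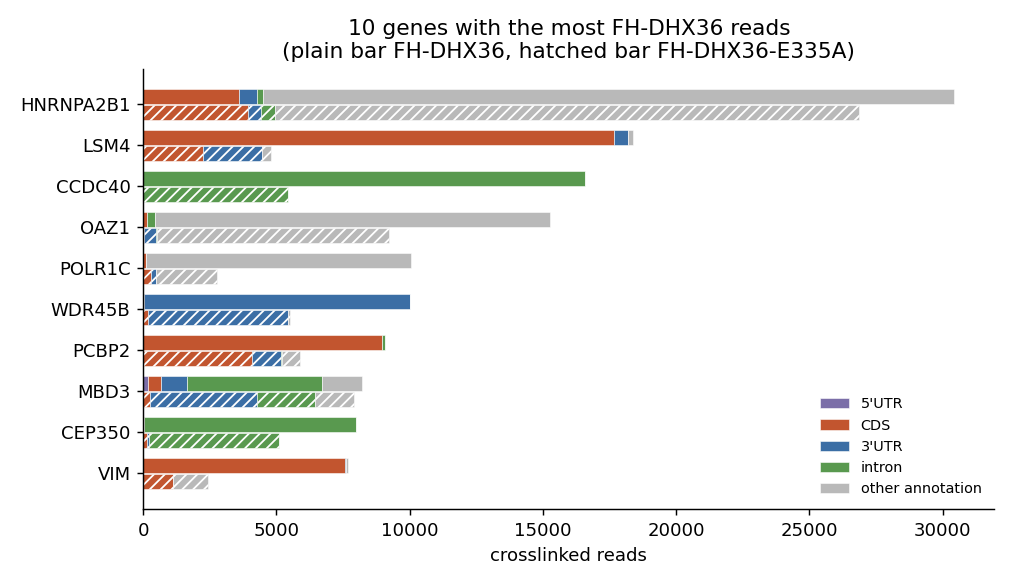
Crosslinked reads of the 10 genes with the most FH-DHX36 reads, split by annotation (colors). Plain bars are FH-DHX36 and hatched bars FH-DHX36-E335A, with 1 value each. The FH-DHX36 reads of LSM4, PCBP2 and VIM lay almost wholly in the CDS, those of CCDC40 and CEP350 in introns and that of WDR45B in the 3'UTR.

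By annotation, the reads of these genes were spread over CDS, 3'UTR and introns more evenly than those of the other genes. Of the FH-DHX36 reads, 29.2% lay in the CDS, 26.4% in the 3'UTR, 15.8% in introns, 5.31% in the 5'UTR and 23.3% elsewhere. In the other genes the CDS held 26.1%, the 3'UTR 43.4%, introns 6.07%, the 5'UTR 8.80% and other annotation 15.7%. Without the 10 genes with the most reads, the 3'UTR held 34.5% and introns 12.6%. Counted by clusters, 35.8% of 1419 were in the 3'UTR and 16.5% in introns, against 43.8% and 9.12% of 11801 in the other genes. Of the FH-DHX36-E335A reads of the same genes, the 3'UTR held 36.6%, the CDS 20.2% and introns 10.2%.

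**Figure D3:**
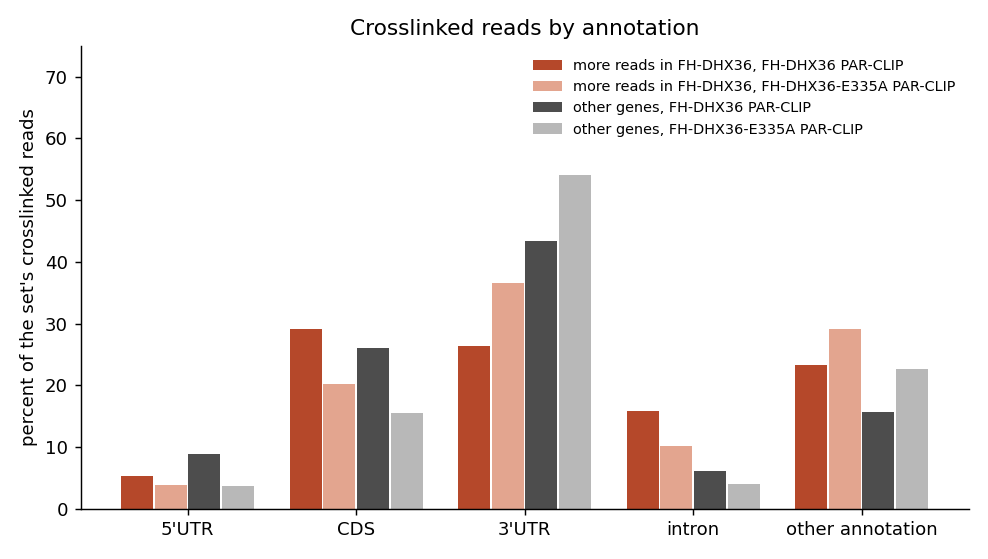
Percent of crosslinked reads by annotation, for the 453 genes with more FH-DHX36 reads and the 2806 other genes in each PAR-CLIP. Bars are shares of all reads of a set, with no replicate error. In each set the CDS and intron bars are higher and the 3'UTR bar lower in FH-DHX36 than in FH-DHX36-E335A.

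The rule fixes the sign of the surplus of 165919 FH-DHX36 reads over FH-DHX36-E335A, and its split by region is given as a description. The CDS held 42.8% of it, introns 24.3%, other annotation 14.5%, the 3'UTR 10.9% and the 5'UTR 7.53%. Without the 10 genes with the most reads, the CDS held 41.3%, introns 21.6%, the 3'UTR 18.1%, the 5'UTR 11.4% and other annotation 7.66%, so that the order of the last 3 rested on those genes. Summed reads of FH-DHX36 were 2.57 times those of FH-DHX36-E335A in introns, 2.39 times over the CDS and 2.29 times over the 5'UTR, but 1.33 times for other annotation and 1.20 times for the 3'UTR. Clusters were called separately in each PAR-CLIP, with 234 against 183 in introns, 431 against 603 in coding sequence, 94 against 85 in the 5'UTR and 508 against 720 in the 3'UTR, and the length they covered is not given in the table. Without the 10 genes with the most reads, the ratio was 2.85 in introns, 2.15 over the CDS and 1.25 over the 3'UTR. Gene by gene, introns held more FH-DHX36 reads in 142 of 183 genes with intronic reads (77.6%) and the 5'UTR in 62 of 95 (65.3%). The CDS held more in 190 of 305 (62.3%) and the 3'UTR in 151 of 307 (49.2%). The 3'UTRs of the selected genes were thus about as often lower as higher. These regions had the same order in the other genes. There introns were higher in 39.2%, the 5'UTR in 33.6%, the CDS in 17.6% and the 3'UTR in 5.54%. Other annotation, at 46.6% of the selected and 7.08% of the other genes, was the lowest in the selected genes only.

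Most FH-DHX36 reads of a gene came from a single region. All reads lay in 1 region in 237 genes (52.3%), against 30.1% of the other genes. A gene with 1 cluster has all its reads in 1 region, and 143 genes (31.6%) had 1 cluster, against 14.3% of the other genes. How much of this difference goes with the number of clusters was not tested. The region with the most FH-DHX36 reads was the CDS in 137 genes, the 3'UTR in 131, introns in 87, other annotation in 64 and the 5'UTR in 34. In 283 of 416 genes it was the same with FH-DHX36-E335A (68.0%, 63.4% to 72.3%), and in 63.0% (61.2% to 64.7%) of the other genes. Of the genes with mainly 3'UTR reads in FH-DHX36, 106 of 119 had mainly 3'UTR reads in FH-DHX36-E335A as well, compared with 80 of 129 for the CDS, 41 of 74 for introns and 19 of 33 for the 5'UTR. Where the region differed, the 3'UTR was most often the main FH-DHX36-E335A region, in 30 of the CDS genes, 18 of the intron genes and 10 of the 5'UTR genes.

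Among genes bound mainly in the 5'UTR, ATXN1L, a relative of ataxin 1, had 3586 FH-DHX36 reads there against 539, while its 3'UTR held 157 against 1699. GIT1, a GTPase-activating protein for ARF proteins, had 1369 5'UTR reads on 1 cluster against 571, with a further 530 FH-DHX36-E335A reads in the 3'UTR. FAM60A, a subunit of the SIN3 histone deacetylase complex, had all 1525 FH-DHX36 reads on 1 5'UTR cluster, against 1072 there. STK11, the kinase LKB1, had 1609 5'UTR reads against 1163, and USP39, a splicing factor, had 1008 against 407. For genes selected on more FH-DHX36 reads and grouped by the region that held most of them, a higher count in that region is largely set by the selection.

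Among the CDS genes, SNRNP70, the U1 snRNP protein, had 2969 CDS reads against 88, and its FH-DHX36-E335A reads mostly had another annotation (2535). ZNF561, a C2H2 zinc finger gene, had 6894 reads on 1 CDS cluster against 739 CDS reads. Among the 3'UTR genes, XRCC3, a DNA repair protein, had 4886 3'UTR reads against 990. KHSRP, which promotes decay of AU-rich mRNAs, had 4308 against 2634 in the 3'UTR and 2818 against 843 in the CDS. RBM12B, an RNA-binding protein, had 5998 against 4203 in the 3'UTR, and SAMD4B, a homolog of the translational repressor Smaug, had 4399 against 3776. Among genes with mostly other annotation, ARF6, a small GTPase of membrane traffic, had 3264 such reads against 2143.

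The 87 genes bound mainly in introns included 41 (47.1%) with 1 FH-DHX36 cluster, against 16.4% of the other genes bound mainly in introns. Their median of 2 clusters was that of all 453 genes. CCDC40, needed for motile cilia, had 16593 FH-DHX36 and 5420 FH-DHX36-E335A reads, each on 1 intronic cluster. CEP350, a centrosomal protein, had 7977 intronic reads against 4899, and FCGR2B, an Fc receptor, had 1848 against 1301. MBD3, a subunit of the NuRD complex, had 5057 intronic reads against 2206, spread with other regions over 29 clusters. COPS7B, a COP9 signalosome subunit, had 1449 intronic reads in FH-DHX36 and none in FH-DHX36-E335A, which instead had 694 reads in its 3'UTR and 689 with another annotation. An annotated small RNA gene lay on the sense strand within 18 of the 87 genes (20.7%, 13.5% to 30.4%) and within 29 of 224 other genes bound mainly in introns (12.9%). Only 4 and 7 of these held a snoRNA or scaRNA gene. The median length of these genes was 43.1 kb against 59.4 kb. Whether clusters lay on the small RNAs was not tested.

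The 453 genes had 1419 FH-DHX36 and 1835 FH-DHX36-E335A clusters. In 213 of the 416 genes with both (51.2%) the FH-DHX36 PAR-CLIP had fewer clusters, compared with 89.5% of the other genes. MBD3 had 29 against 25 clusters and SAMD4B 25 against 18, whereas RBM12B had 9 against 29. FH-DHX36 reads per cluster had a median of 149 (quartiles of 86.5 and 282) against 60.5 (38.7 and 113) for FH-DHX36-E335A. In the other genes the medians were 94.1 and 137. Reads per cluster were higher in FH-DHX36 in 377 of 416 genes (90.6%), and in 29.4% of the other genes. These numbers are a description and follow largely from the rule, since a selected gene with as many or fewer FH-DHX36 clusters must have more reads per cluster. The median was 149 for genes bound mainly in the 5'UTR, 159.5 in the CDS, 123 in the 3'UTR, 156 in introns and 179.5 in other annotation.

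**Figure D4:**
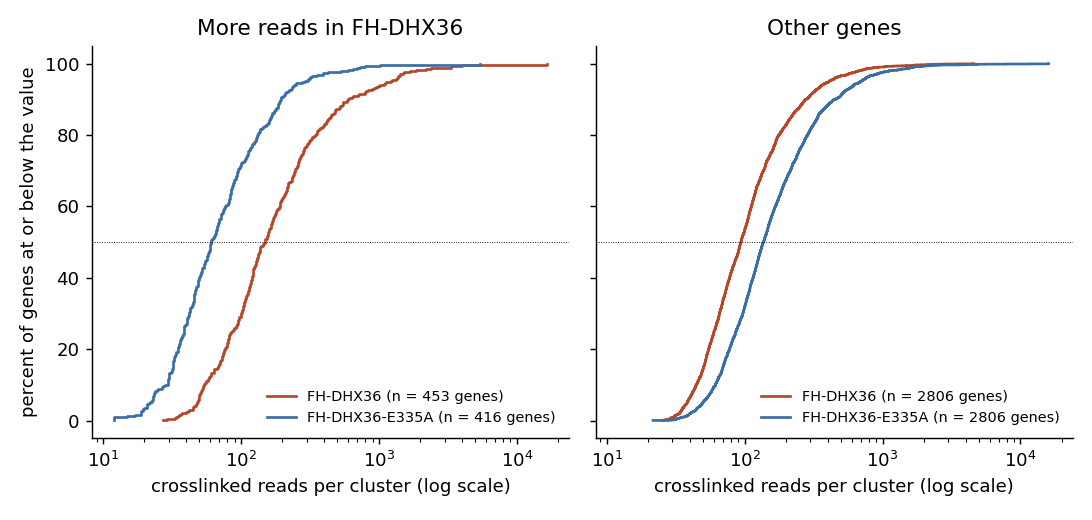
Cumulative percent of genes (vertical) by crosslinked reads per cluster (horizontal, log scale) in each PAR-CLIP, for genes with more FH-DHX36 reads (left) and other genes (right). The dotted line marks the median. FH-DHX36 lies to the right of FH-DHX36-E335A on the left, with medians of 149 and 60.5, and to the left of it on the right, with medians of 94.1 and 137.

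A single FH-DHX36 cluster was listed for 143 genes (31.6%), against 14.3% of the other genes, and these held 19.8% of the reads. A further 235 genes had 2 to 4 clusters, 61 had 5 to 9, and 14 had 10 or more and held 18.9% of the reads. The highest counts per cluster were on CCDC40 with 16593 reads, ZNF561 with 6894, CEP350 with 3997, POLR1C with 3355 and TSPAN13, a tetraspanin, with 3330. TSPAN13 had 1 FH-DHX36 cluster, with another annotation, and 9 FH-DHX36-E335A clusters with 1206 reads in all. For FH-DHX36, ZNF561 likewise had 1 cluster where FH-DHX36-E335A had 7. Reads of PCR copies are not independent molecules.

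No FH-DHX36-E335A cluster was listed for 37 genes (8.17% of the 453, 5.98% to 11.1%). These were the only such genes among the 3259 with at least 100 FH-DHX36 reads. The rule itself allows none in the other 2806. The share of 8.17% depended on the rule and was 17.6% with a minimum of 50 FH-DHX36 reads and 3.45% with a minimum of 200. The 37 genes had 101 to 608 FH-DHX36 reads with a median of 161, and 26 of them had 1 cluster. Introns were the main region in 13, the 3'UTR in 12, the CDS in 8, other annotation in 3 and the 5'UTR in 1. PPFIA1, the scaffold protein liprin-alpha 1, had 608 reads on 1 CDS cluster. TPCN1, an endolysosomal ion channel, had 272 on 1 3'UTR cluster. PCBD2, a pterin dehydratase, had 283 reads on 1 intronic cluster, and ANKRD30BL had 429 on 1 cluster with another annotation. PCBD2 and ANKRD30BL held stretches of 30 nt that also occur in the mitochondrial genome or in rRNA genes. The PCBD2 gene held 873 mitochondrial stretches on the antisense strand and ANKRD30BL held 123 of annotated rRNA genes or pseudogenes on the sense strand. On either strand, mitochondrial stretches were found in 4 of 452 genes and in 6 of 2796 other genes. Their part in these counts was not tested.

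Gene families, formed by symbol, covered 84 of the 453 genes (18.5%), and no family made up more than 5.52%. Beside the 13.9% of all genes with at least 100 FH-DHX36 reads, the shares ran from 0% to 30.8% over the families, and the wide 95% interval of each family that had such genes included 13.9%. C2H2 zinc finger genes gave 12 of 105 (11.4%, 6.66% to 18.9%). ZNF561 held 6894 of their 11458 FH-DHX36 reads, and ZNF536 had 1379 against 428 reads, ZNF512B 555 against 358, ZNF316 478 against 410 and ZSCAN25 409 against 318. No BTB zinc finger gene of 13 and no histone cluster gene of 20 was included. Transmembrane protein genes gave 9 of 39 (23.1%, 12.6% to 38.3%), with 1157 against 488 reads on TMEM164, 858 against 786 on TMEM109, 369 against 274 on TMEM201, 358 against 89 on TMEM120B and 220 against 65 on TMEM115. All but TMEM115, which had 184 reads in the 5'UTR, had mainly 3'UTR reads among these 5.

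Kinesins, the motors that move cargo along microtubules, gave 4 of 13 (30.8%, 12.7% to 57.6%). KIF1A had 1208 reads, all in the 3'UTR, against 926. KIF15 had 350 against 68, each on 1 CDS cluster. KIF5A had 235 reads in the 3'UTR and KIF26A 177 in the CDS, with no FH-DHX36-E335A cluster on either. Solute carriers gave 7 of 46 (15.2%, 7.57% to 28.2%), and SLC35A4 held 2255 of their 3215 reads, 2232 of them in the 3'UTR, against 1655. SLC4A2 (250 against 243), SLC19A1 (170 against 140), SLC39A11 (161 against 0) and SLC38A10 (141 against 57) had few reads. RING and TRIM ubiquitin ligases gave 3 of 32 (9.38%). TRIM28, the corepressor of zinc finger proteins, had all 2180 FH-DHX36 reads in the CDS on 14 clusters, against 1635 reads, RNF215 had 747 against 93, and TRIM33 had 527 against 407. Heat shock and DNAJ chaperones gave 4 of 21, with 386 against 357 reads on DNAJC11, 223 against 147 on HSPBP1, 212 against 121 on DNAJB11 and 103 against 44 on DNAJC6.

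Of families that act on RNA or make protein, 2 of 46 cytosolic ribosomal protein genes (4.35%, 1.20% to 14.5%) and 1 of 30 mitochondrial ribosomal protein genes (3.33%, 0.591% to 16.7%) were included, as were 2 of 27 hnRNP and SR genes, 2 of 20 DEAD and DEAH box helicases, 2 of 13 RNA-binding motif genes and 1 of 25 translation initiation factors. Of 22 nuclear genes for the respiratory chain and ATP synthase, 1 was included. Genes known by C-orf, KIAA, FAM or CCDC names gave 25 of 132 (18.9%, 13.2% to 26.5%), and CCDC40 held 16593 of their 27857 reads. Besides CCDC40 and FAM60A, CCDC43 had 1503 against 1205 reads, CCDC66 1027 against 687 and CCDC86 876 against 765.

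The transcripts had a higher G+C content than those of the other genes. Over 451 canonical transcripts the median was 56.1% (quartiles of 48.7% and 61.5%), against 47.5% (41.8% and 55.7%) for 2787 other genes. The medians were 51.6% against 41.8% in the 3'UTR, 58.2% against 52.1% in the CDS and 70.7% against 68.8% in the 5'UTR. For genes bound mainly in the 3'UTR, the 3'UTR had a median of 55.8% against 44.5%. U made up a median of 26.0% of the 3'UTR against 30.8%, and ATTTA, searched on the sense strand, occurred 1.02 against 1.88 times per 1000 nt of 3'UTR. G-run matches occurred 3.61 against 2.34 times per 1000 nt of transcript, but 6.37 against 6.38 times in the 5'UTR. The density was higher in coding sequence (3.32 against 2.47) and in the 3'UTR (2.48 against 1.44).

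When the 3238 genes with a canonical transcript were divided by G+C into 5 classes of about equal size, the share of genes with more FH-DHX36 reads was 7.25% in the lowest class, then 5.87%, 11.7%, 16.1% and 28.7% (25.4% to 32.3%) in the highest. Median FH-DHX36 reads per gene were 270, 267, 270.5, 303 and 294.5 across the classes. Median FH-DHX36-E335A reads were 1758, 1413, 1226, 911 and 628. The FH-DHX36-E335A reads were thus lower at high G+C, while the FH-DHX36 reads, on which the minimum of 100 was set, were at similar levels. Over the 3201 of these genes with reads in both PAR-CLIPs, Spearman's rho of G+C with the ratio of reads was 0.408 and Pearson's r with its logarithm was 0.399. Over all 5627 genes with a cluster in both and no read minimum, a comparison added after seeing the data, rho was 0.384. By region, with the G+C and the reads of the same region, rho was 0.303 in the 5'UTR (541 genes), 0.411 in the CDS (1692 genes) and 0.510 in the 3'UTR (1992 genes). These are correlations across genes, which share the same libraries and are not independent replicates, and the part of library preparation in them was not tested.

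**Figure D5:**
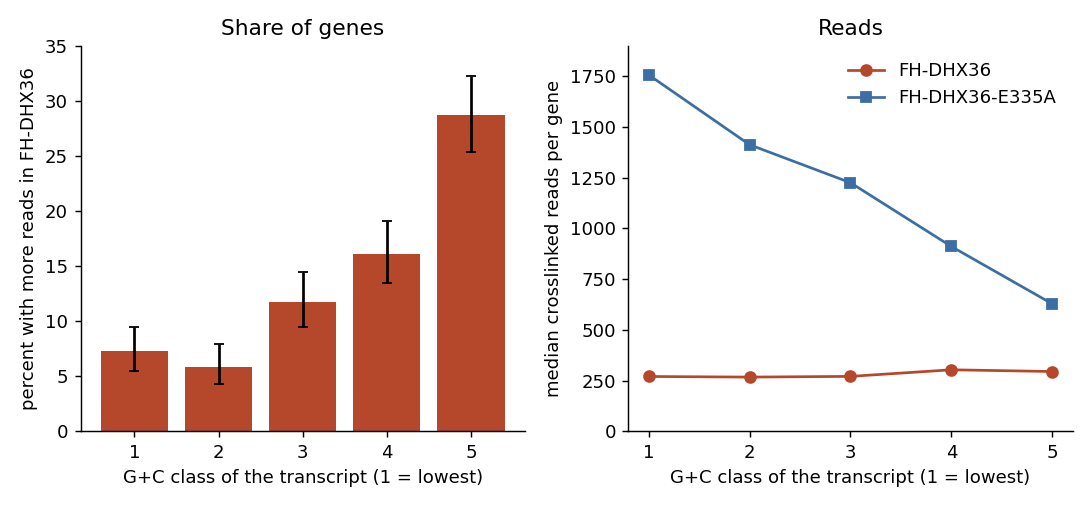
Genes with at least 100 FH-DHX36 reads, divided into 5 classes by G+C of the canonical transcript (horizontal). Left, percent with more FH-DHX36 reads, with 95% Wilson intervals, which reached 28.7% in the highest class. Right, median crosslinked reads per gene, which ran from 1758 to 628 for FH-DHX36-E335A and stayed between 267 and 303 for FH-DHX36.

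The transcripts had a median of 3416 nt against 3611 nt in the other genes, with a 3'UTR of 1214 nt against 1636 nt, a CDS of 1638 nt against 1296 nt and 11 exons against 8. The correlation of the ratio with 3'UTR length was -0.19 (rho). RNA abundance, recovered from NXPM (crosslinked reads scaled to the total and divided by RNA abundance), had a median of 6.03 against 9.92. FH-DHX36 NXPM had a median of 26.2 against 14.3 and FH-DHX36-E335A NXPM a median of 2.80 against 14.6. NXPM is made from the reads that the rule used, so that the FH-DHX36-E335A difference follows largely from the selection. For FH-DHX36, median reads were close (312 against 272), while the abundance by which NXPM divides was lower in the selected genes. The part of each in the FH-DHX36 difference was not tested. For 3 of the genes, among them FCGR2B, the recovered abundance was 0, so that their NXPM, 855392 for FCGR2B, has no meaning as a level. Chromosome 19 held 56 of the genes (12.4%), against 8.69% of the other genes. Beside 13.9% over all genes, the share with more FH-DHX36 reads was 22.2% (15.4% to 30.9%) on chromosome 20, 21.3% (14.6% to 29.9%) on chromosome 22 and 18.7% (14.7% to 23.5%) on chromosome 19. It was lowest on chromosomes 1 (9.55%, 7.04% to 12.8%), 6 (8.0%, 4.83% to 13.0%), 5 (7.02%, 4.06% to 11.9%) and 21 (6.45%, 1.79% to 20.7%). The intervals of chromosomes 16 and 21 included 13.9%, and these extremes were picked after the values of all chromosomes were seen.

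Some transcripts share sequence with another gene, so that their counts may not belong to a single gene. More than 50% of the 30-mers of the transcript were shared with another gene in 19 of 451 genes (4.21%) and in 111 of 2787 other genes (3.98%). Among them were IMPDH2 (98.8%), RPS10 (93.0%), ZNF709 (92.3%) and PPAN (62.8%). PPAN was included with 1684 against 189 reads, whereas PPAN-P2RY11, listed as a separate gene, had 1514 against 3915 and was not. Whether the place of PPAN depends on how reads were divided between these entries was not tested. How the reads of such genes were shared out is not given in the sources used here.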

How the data were processed

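The authors carried out PAR-CLIP on HEK293 cells with induced FH-DHX36 or induced FH-DHX36-E335A, as 2 biological replicates each. They mapped the reads to hg19 (per the labels, with bcl2fastq 2.17.1 among the tools), called clusters with PARalyzer in PARpipe and assigned them with GENCODE v19. Crosslinked reads and clusters were deposited by the authors as counts per gene and region. NXPM was deposited by the authors as a normalized score. The table does not separate the replicates. The paper defines binding sites by intersecting the replicates, and whether this table was made that way was not tested. No column belonged to another sample.

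Genes were selected, counted and described in Python 3.11.15 (pandas 2.3.3, numpy 2.4.6, scipy 1.17.1, matplotlib 3.10.9). Reads with another annotation are the total less 5'UTR, CDS, 3'UTR and intron. RNA abundance was recovered as scaled reads over NXPM less 0.001. Lengths and sequences are those of the canonical protein-coding transcript in GENCODE release 44 on GRCh37. Of the 453 genes, 452 were matched, 434 by symbol and 18 by RefSeq synonyms, and 451 had a canonical transcript. The 30-mer searches for mitochondrial and rRNA stretches and the G+C alternatives were added after seeing the data. The code was tested on simulated data.

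The genes and gene lists were chosen with earlier results of these data known. Genes named in the text were, by FH-DHX36 reads, the top 10, the top 5 of each main region, of reads per cluster, of genes with no FH-DHX36-E335A cluster and of each family with at least 3 genes, and the 3 on each side of each threshold. ZER1, the genes named for shared 30-mers, PPAN-P2RY11 and the chromosomes given were chosen after their values were seen. No p-value was computed, since no replicates are given and the rule uses the same contrast. Depth here is the number of crosslinked reads, which was 2160413 against 8752127, and 95% Wilson intervals cover counting error only. Tests between the cell lines were not run. Some genes and sequences that these rules select are not reported here.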

Additional observations from a re-analysis of the deposited data

How the results depend on the processing

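No paired analysis was possible because the table holds no replicate columns, and for the same reason leaving out a replicate was not run. Of 65 alternative values, 31 stayed within the interval of the reported value (or within 1.5 times a count) and 34 moved. Those that stayed include the values with identifiers on more than 1 line left out. No selected gene had such an identifier, so that this setting left the selected genes unchanged and their values could not move. These values therefore say nothing about how far the results depend on the processing. Why the other values moved was not tested beyond the fewer or more genes each setting takes. Requiring FH-DHX36 reads at least 2 times those of FH-DHX36-E335A left 191 genes, with 1.42% of FH-DHX36 reads in the 5'UTR, 43.2% in the CDS, 16.2% in the 3'UTR and 23.2% in introns, a median of 127 reads per cluster, 41.4% with 1 cluster, 19.4% with no FH-DHX36-E335A cluster and 58.4% with the same main region. Compared as shares of each total, 1868 genes were higher in FH-DHX36. With at least 50 reads, introns held 16.2%, the median was 102 reads per cluster, 42.3% had 1 cluster and 17.6% had no FH-DHX36-E335A cluster. With at least 200 reads, the 3'UTR held 26.3%, introns 15.3%, the median was 216 reads per cluster and 3.45% had no FH-DHX36-E335A cluster. Intervals of read shares count each read as independent and are narrow. The 3'UTR share thus counts as moved although it was 26.4% as reported. Among genes with at least 2 clusters the median was 119. Counted by clusters, the shares were 6.62% in the 5'UTR, 30.4% in the CDS, 35.8% in the 3'UTR and 16.5% in introns. As means of each gene's own shares they were 7.88%, 29.9%, 28.5% and 20.2%. Without the 10 genes with the most reads they were 7.73%, 29.3%, 34.5% and 12.6%. A G-run match was found in 38.8% with runs of at least 3 guanines and in 100% with loops of up to 12 nt. With snoRNA and scaRNA genes only, 4.60% of the intron-bound genes held a small RNA gene. The share in the highest G+C class was 27.7% to 29.2% over alternatives added after seeing the data. Low read counts limit the genes near 100 reads, of which 41 had 100 to 120.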
